A study of Oryza sativa with 17 samples.

Results

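Gene expression of germinating seeds of the weedy rice WR04-6 at 10 °C was compared between 14 and 10 days after imbibition (DAI). All 21141 of the 23223 genes in the deposited table that had at least 0.1 FPKM (fragments per kilobase of transcript, scaled to the sequenced fragments of the library) in 2 or more of the 6 libraries were compared. The 6 libraries, of 17 in the series, were 3 of WR04-6 at 14 DAI and 3 of WR04-6 at 10 DAI. WR04-6 also had 3 libraries at 12 DAI, which entered the estimate of the spread. The cultivated rice Qishanzhan (QSZ) had 2 libraries at 10 DAI, 3 at 12 DAI and 3 at 14 DAI. All 17 libraries came from seeds kept at 10 °C, and the replicates were biological replications of whole germinating seeds. The number of seeds behind a library is not given in the sources used here. WR04-6 is a single accession, and its seeds at the 3 time points form one series in the cold, without a warm control.

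A rice seed takes up water, its embryo axis elongates as the cell walls are loosened, and the coleoptile and radicle break through the husk. Expansins and xyloglucan endotransglucosylase/hydrolases loosen and remodel the walls of growing cells, gibberellin promotes germination, and abscisic acid (ABA) holds it back. Low temperature slows this growth, and in rice seedlings moved to the cold, calcium signals and the DREB1 (CBF) transcription factors lead a rapid transcriptional response.

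The depth of the WR04-6 libraries, as the sum of the deposited estimated counts, lay between 69164347 and 72494532 in the 6 libraries of 10 and 12 DAI. Those of 14 DAI were shallower, with 68072217, 58608158 and 51209499. One sequenced fragment stands for about 4 estimated counts. The TMM scaling factors (edgeR's trimmed mean of M values) lay between 0.958 and 1.03. In a principal component analysis (PCA) of the 9 libraries, the 3 libraries of 14 DAI lay between 29.3 and 50.6 on the first component, which held 26.0% of the variance, and the other 6 lay between -37.3 and -9.20. On the second component (22.2%), replicate 1 of 14 DAI, at -47.4, and replicate 3 of 10 DAI, at -54.0, stood apart from the other 7, which lay between -11.5 and 39.2. The tissue label was checked with 14 genes of seed storage proteins and oil bodies. Their summed level was 5089, 3773 and 8233 FPKM at 14 DAI and 3674, 7210 and 12885 FPKM at 10 DAI, so that every library held abundant seed RNA. Actin (LOC_Os03g50885) had 283, 318 and 311 FPKM at 14 DAI and 349, 336 and 293 FPKM at 10 DAI, and the ranges overlapped.

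Few genes changed between 14 and 10 DAI. By the quasi-likelihood test of edgeR, with p-values adjusted for all 21141 genes after Benjamini and Hochberg (BH), 150 genes rose (0.71% of those tested) and 111 fell (0.525%) at an adjusted p below 0.05, 261 in all (1.23%). Of these, 110 were at least 2-fold higher (0.52%) and 64 at least 2-fold lower (0.303%) at 14 DAI. These 174 genes (0.823%) are called DEGs here, and the other 87 changed by less than 2-fold. In each of the 174 DEGs the 3 libraries of 14 DAI did not overlap the 3 of 10 DAI, which was the case in 17.4% of all genes tested (8.37% with 14 DAI above and 8.99% with it below). The DEGs were selected by a test on the same libraries, so their separation is no independent support. The same holds for single changed genes below whose libraries did not overlap. At an unadjusted p below 0.05 were 3065 genes (14.5%), of which 1715 were higher (8.11%) and 1350 lower (6.39%). The median log2 fold change (log2FC, 14 over 10 DAI) of all genes was -0.01. Throughout, a gene is said to rise, fall or change only when its adjusted p was below 0.05, and for other genes the values are given. A library holds the whole seed, so a lower level of a transcript cannot be told apart from fewer cells of the type that makes it.

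**Figure D1:**
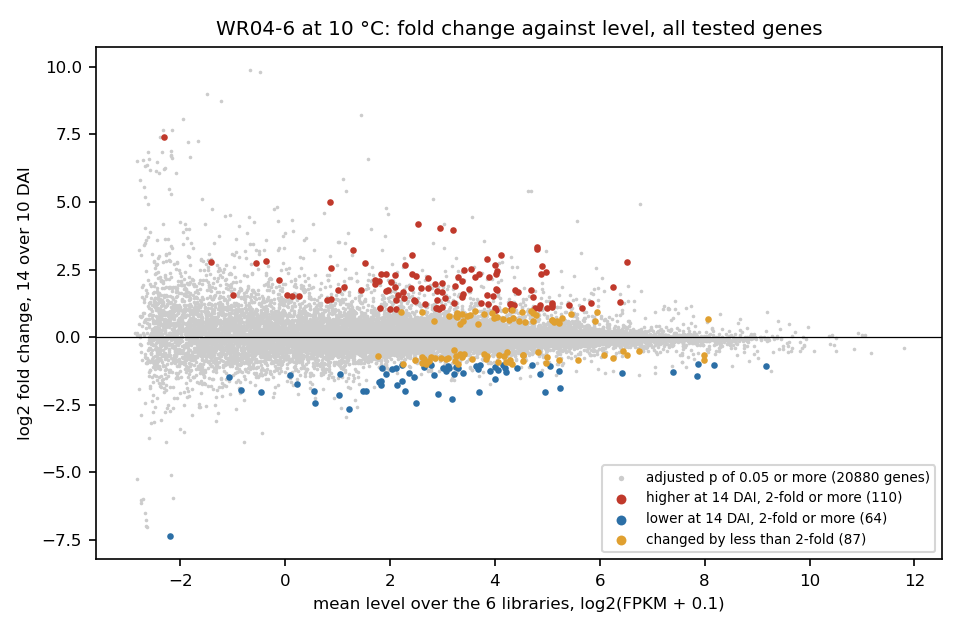
Log2 fold change, 14 over 10 DAI (y axis), against the mean of the 6 libraries as log2(FPKM + 0.1) (x axis) for the 21141 genes tested in WR04-6. Each point is a gene, with 110 DEGs higher at 14 DAI in red, 64 DEGs lower in blue and 87 genes that changed by less than 2-fold in ochre. The median of all genes lies at -0.01, and most of the largest fold changes at low levels did not pass the test.

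The number of calls depended on single libraries. With 1 library of 14 DAI left out, 311 (without replicate 1), 2 (without replicate 2) and 87 (without replicate 3) genes were DEGs. With 1 library of 10 DAI left out, the numbers were 81, 17 and 237 in the order of the replicates, and with 1 of 12 DAI left out they were 59, 82 and 75. The pair left without replicate 2 of 14 DAI were LOC_Os04g33460, annotated with 1,4-alpha-glucan branching enzyme activity, and the B2 protein gene LOC_Os05g51590. LOC_Os04g33460 was the single DEG that passed the test with each of the 9 WR04-6 libraries left out in turn. At a limit of 0.01 on the adjusted p, no gene passed in edgeR, the lowest adjusted p being 0.0104. The 6 libraries of 14 and 10 DAI without those of 12 DAI gave 8 DEGs, limma on log2(FPKM + 0.1) gave 239 and DESeq2 gave 611.

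**Figure D2:**
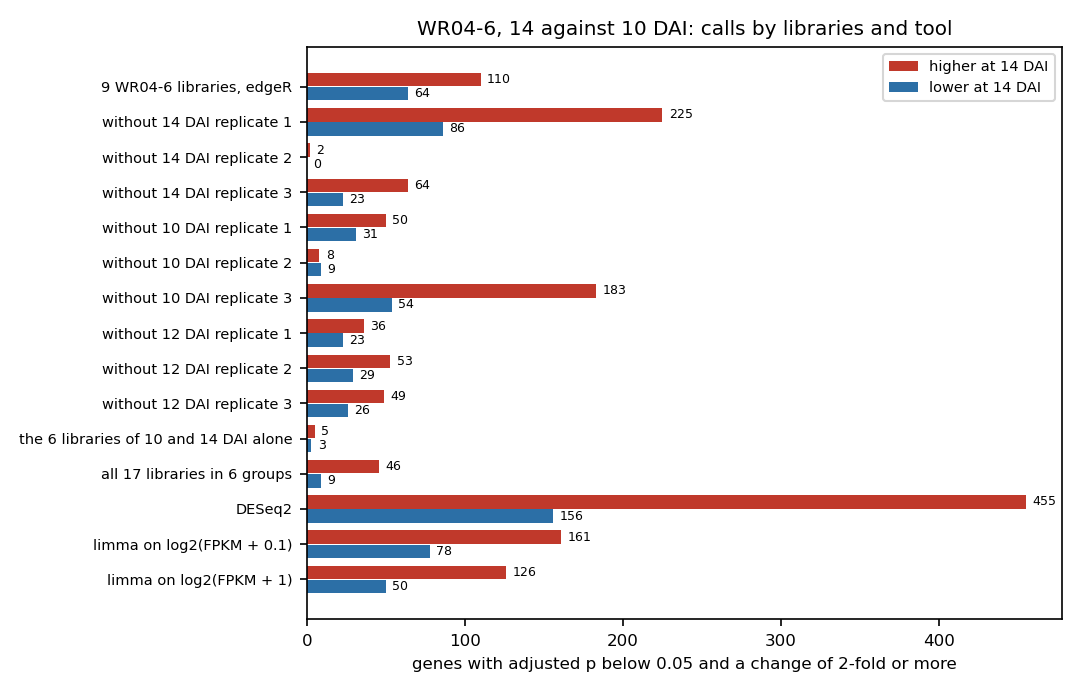
Number of DEGs higher (red) and lower (blue) at 14 DAI in WR04-6 (x axis) with all 9 libraries in edgeR, with each library left out in turn, with other sets of libraries and with other tools (rows). The counts run from 2 higher and 0 lower without replicate 2 of 14 DAI to 455 higher and 156 lower in DESeq2.

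Several genes of cell-wall loosening fell. Of 36 expansin genes tested, 6 fell (16.7%, against 0.525% of all genes) and 1 rose (2.78%, against 0.71%), and the median log2FC of the family was -0.35. This family, like the other families by annotation below, was chosen after its values were seen, so that its counts are a description. The counts of the families and lists below stand beside the same shares of all genes, 0.525% that fell and 0.71% that rose. Expansin-like A4 (LOC_Os06g50960, chromosome 6, 30846360 to 30848025) had 4.19, 2.64 and 2.41 FPKM at 14 DAI and 19.3, 12.6 and 12.9 FPKM at 10 DAI. The highest library of 14 DAI was below the lowest of 10 DAI by a wide margin. It fell 4.81-fold (log2FC -2.27, SE 0.24, adjusted p = 0.0104 in edgeR). Expansin-A2 (LOC_Os01g60770) had 17.9, 10.2 and 8.16 FPKM at 14 DAI and 61.9, 50.2 and 36.3 FPKM at 10 DAI, and it fell 4.06-fold (log2FC -2.02, SE 0.29, adjusted p = 0.0185 in edgeR). Its 3 libraries of 14 DAI were all below those of 10 DAI, which lay further apart.

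The most abundant of these expansins fell by a smaller factor. Expansin-A4 (LOC_Os05g39990) had 189, 154 and 128 FPKM at 14 DAI and 308, 316 and 317 FPKM at 10 DAI (log2FC -1.0, SE 0.13, adjusted p = 0.0144 in edgeR). Expansin-B8 (LOC_Os03g01260) had 194, 175 and 174 FPKM at 14 DAI and 310.3, 344 and 317 FPKM at 10 DAI (log2FC -0.84, SE 0.11, adjusted p = 0.0148). The libraries of each time point lay close together in both genes, and the time points did not overlap. Expansin-A6 (LOC_Os03g21820), at most 0.746 FPKM at 14 DAI and 1.67 to 2.96 FPKM at 10 DAI, and expansin-B7 (LOC_Os03g01270), the neighbour of expansin-B8 on chromosome 3, also fell, with log2FC of -1.98 and -1.63. How reads shared by such related genes were counted is not given in the sources used here. Expansin-A1 (LOC_Os04g15840) went the other way, with 7.09, 5.3 and 5.95 FPKM at 14 DAI and 2.82, 2.6 and 1.64 FPKM at 10 DAI (log2FC 1.39, SE 0.27, adjusted p = 0.0441).

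The xyloglucan endotransglucosylase/hydrolases (XTHs), which cut and rejoin the xyloglucan chains of the wall, moved in both directions. Of 20 tested, 2 rose and 1 fell, with a median log2FC of 0.25. The gene that fell, LOC_Os11g33270, was the most abundant wall gene named here at 10 DAI, with 137, 125 and 116 FPKM at 14 DAI and 348, 339 and 328 FPKM at 10 DAI. Its level at 14 DAI was 2.68-fold lower (log2FC -1.42, SE 0.17, adjusted p = 0.0143 in edgeR). XTH protein 22 (LOC_Os06g48160) rose, with 98, 166 and 90.5 FPKM at 14 DAI and 62.6, 36 and 45 FPKM at 10 DAI (log2FC 1.31, SE 0.25, adjusted p = 0.0446). The second to rise, LOC_Os06g22919, stayed below 1 FPKM in all 6 libraries.

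Further wall genes fell. Alpha-xylosidase 1 (LOC_Os01g03950), which trims xyloglucan, had 62.8, 53.3 and 51.6 FPKM at 14 DAI and 91.4, 94.4 and 101 FPKM at 10 DAI (log2FC -0.78). The leucine-rich repeat extensin-like protein 3 (LOC_Os01g41120) had 6.98, 4.58 and 6.52 FPKM at 14 DAI and 14.2, 12.3 and 18.2 FPKM at 10 DAI (log2FC -1.31). The arabinogalactan protein 26 gene (LOC_Os01g71170) had 4.46, 5.28 and 5.05 FPKM at 14 DAI and 12.7, 11.1 and 11.1 FPKM at 10 DAI (log2FC -1.24). In all of them every library of 14 DAI was below every library of 10 DAI. A polygalacturonase (LOC_Os05g50260), an enzyme of pectin breakdown, had the largest factor of this group at 6.29-fold lower, on levels of at most 0.688 FPKM at 14 DAI and 2.11 to 6.00 FPKM at 10 DAI. The mannan endo-1,4-beta-mannosidase 1 (LOC_Os01g47400, log2FC -1.01), CASP-like protein 1E1 (LOC_Os01g26120, log2FC -1.55), peroxidase P7 (LOC_Os02g14160, log2FC -1.08) and peroxidase 5 (LOC_Os03g02920, log2FC -0.85) fell as well. These 2 peroxidases were the only ones to change of 67 annotated as class III peroxidases, of which 33 had a positive and 34 a negative log2FC (median -0.0009). Of 23 arabinogalactan protein genes tested, 1 fell and none rose (median -0.12). LOC_Os05g04470, annotated with peroxidase activity and the cell wall, had 21.9, 21 and 20.8 FPKM at 14 DAI and 44.3, 39.9 and 40.5 FPKM at 10 DAI (log2FC -0.97, SE 0.10, adjusted p = 0.0104 in edgeR).

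As a list, plant-type cell wall organization (a GO term, 84 genes tested) had 5 genes that fell and 2 that rose, with a median log2FC of -0.03, against -0.01 for all genes. Secondary cell wall biogenesis (39 genes) had none in either direction. Of the 19 changed wall genes named above, 16 kept an adjusted p below 0.05 without replicate 1 of 14 DAI, none without replicate 2, 7 without replicate 3, and 2 without replicate 2 of 10 DAI. Their highest adjusted p with 1 library left out was between 0.050 and 0.144. COBRA-like protein 7 (LOC_Os03g18910) and protein EXORDIUM (LOC_Os02g51970), which are not among the 19, rose. Their log2FC were 0.84 (adjusted p = 0.0323 in edgeR) and 1.48 (adjusted p = 0.0413), in that order. For EXORDIUM the adjusted p was 0.116 without replicate 2 of 14 DAI.

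**Figure D3:**
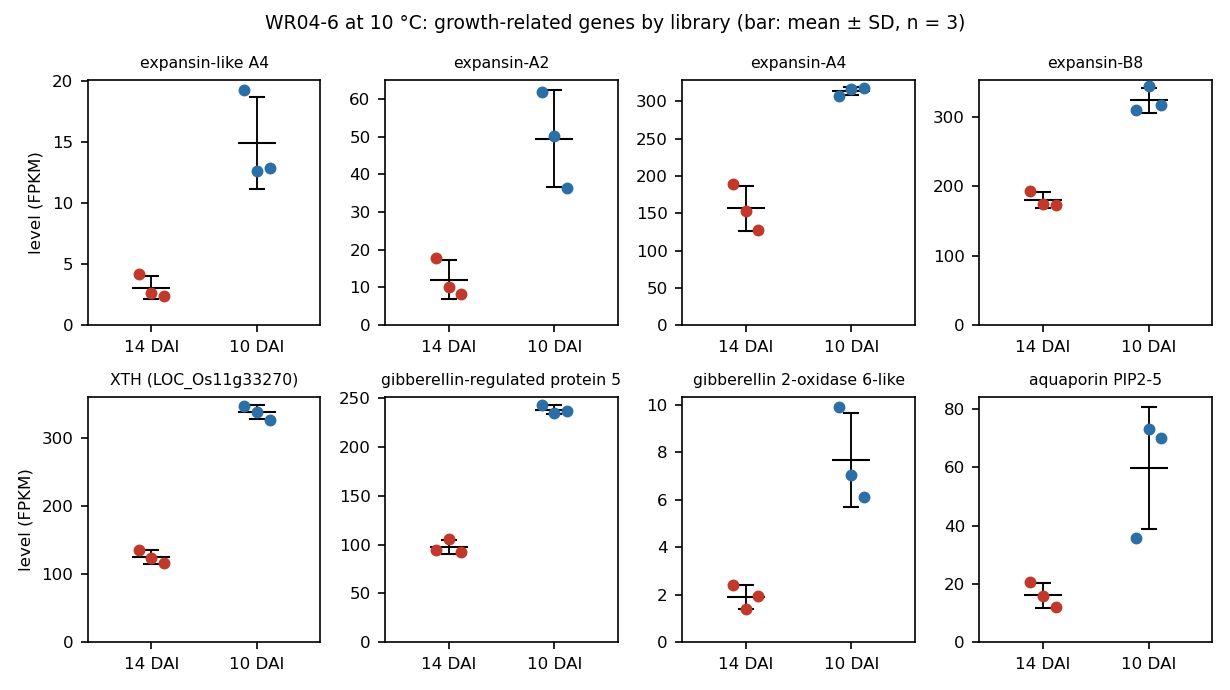
Level in FPKM (y axes from 0) of 8 genes linked to growth in WR04-6, with each library as a point, 14 DAI in red on the left and 10 DAI in blue on the right, and the mean ± SD (n = 3) as a bar. In every panel the 3 libraries of 14 DAI lie below the 3 of 10 DAI, as for gibberellin-regulated protein 5. It had 92.8 to 106 FPKM at 14 DAI and 234 to 243 FPKM at 10 DAI. Only genes that were lower at 14 DAI were chosen for the panels, so their shared direction follows from the choice. Growth-linked genes that rose are not shown, among them an expansin and a xyloglucan endotransglucosylase/hydrolase.

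A pair of aquaporins, the water channels of the cell, changed in opposite directions. Aquaporin PIP2-5 (LOC_Os07g26660), of the plasma membrane, had 20.6, 15.9 and 12 FPKM at 14 DAI and 35.8, 73.2 and 70.2 FPKM at 10 DAI, and it fell 3.71-fold (log2FC -1.89, SE 0.35, adjusted p = 0.0399 in edgeR). PIP2-4 (LOC_Os07g26630), nearby on chromosome 7, had 55.7, 75.1 and 46.7 FPKM at 14 DAI and 95.3, 189 and 179.9 FPKM at 10 DAI, without overlap, and did not pass the test (log2FC -1.39, adjusted p = 0.0546). The vacuolar aquaporin TIP1-1 (LOC_Os03g05290) was far more abundant and rose, with 351, 339.9 and 298 FPKM at 14 DAI and 246, 205 and 173 FPKM at 10 DAI (log2FC 0.67, SE 0.13, adjusted p = 0.0413). The other 9 PIP genes and 6 TIP genes tested did not pass the test. Without replicate 2 of 14 DAI neither call held, and the highest adjusted p with 1 library left out was 0.127 for PIP2-5 and 0.144 for TIP1-1.

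Some genes that gibberellin regulates, and 1 that inactivates it, fell. Of the 6 gibberellin-regulated (snakin/GASA) genes tested, small secreted peptides, 2 fell, all 6 had a negative log2FC (2 of which turned positive with 1 library left out), and the median was -1.02. Gibberellin-regulated protein 5 (LOC_Os06g15620, chromosome 6, 8847702 to 8848847) had 243, 234 and 237 FPKM at 10 DAI, 144, 104 and 127 FPKM at 12 DAI and 94.5, 106 and 92.8 FPKM at 14 DAI. Levels at 14 DAI were tight and 2.43-fold below those at 10 DAI (log2FC -1.28, SE 0.13, adjusted p = 0.0104 in edgeR). Snakin-2 (LOC_Os06g51320) had 12.3, 13.5 and 8.25 FPKM at 14 DAI and 27.7, 29.1 and 18.1 FPKM at 10 DAI (log2FC -1.13, SE 0.21, adjusted p = 0.0402). Gibberellin-regulated protein 12 (LOC_Os09g24840) had the largest negative value of the family (-2.94) with libraries that overlapped, 0.418, 0.809 and 0.211 FPKM at 14 DAI and 7.56, 3.31 and 0.575 FPKM at 10 DAI.

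In the pathway itself, a gibberellin 2-beta-dioxygenase 6-like gene (LOC_Os04g44150), of the enzyme class that inactivates gibberellin, fell 3.95-fold, with 2.41, 1.41 and 1.95 FPKM at 14 DAI and 9.9, 7.05 and 6.12 FPKM at 10 DAI (log2FC -1.98, SE 0.27, adjusted p = 0.0149 in edgeR). It was the 1 of 8 gibberellin 2-beta-dioxygenases tested to change, and 4 of the 8 had a positive and 4 a negative log2FC (median 0.03). The activating enzyme gibberellin 3-beta-dioxygenase 2 (LOC_Os01g08220) had 4.02, 11.3 and 5.5 FPKM at 14 DAI and 21.2, 19.4 and 27.9 FPKM at 10 DAI (adjusted p = 0.0591). The gibberellin 20 oxidase 1-like gene (LOC_Os03g63970), one step earlier, had 70.0, 103 and 80.3 FPKM at 14 DAI and 174, 145 and 218 FPKM at 10 DAI (adjusted p = 0.0623). The time points did not overlap in either gene, but neither passed the test. The DELLA repressor SLR1 (LOC_Os03g49990, 56.1, 54.3 and 48.7 FPKM at 14 DAI and 55.6, 60.1 and 41.7 FPKM at 10 DAI) and the receptor GID1 (LOC_Os05g33730, log2FC 0.17) overlapped between the time points. Of 14 gibberellin genes listed by ID, 1 fell (gibberellin-regulated protein 5) and none rose (median log2FC -0.01), and of 53 genes annotated as responding to gibberellin, 3 fell and none rose (median -0.08). The chitin-inducible gibberellin-responsive protein gene LOC_Os07g36170 rose, with 25.5, 26.6 and 26.6 FPKM at 14 DAI and 16.2, 16.7 and 19 FPKM at 10 DAI (log2FC 0.60).

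Single genes of other growth hormones fell with them. The brassinosteroid-biosynthesis gene cytochrome P450 90A4 (LOC_Os12g04480) had 11.6, 11.3 and 11.3 FPKM at 14 DAI and 21.5, 24.6 and 19.3 FPKM at 10 DAI (log2FC -0.93, SE 0.11, adjusted p = 0.0137 in edgeR). The transcription factors BIM2 (LOC_Os08g38210, log2FC -0.87) and BIM3 (LOC_Os09g29930, log2FC -0.64), known from Arabidopsis as partners of a brassinosteroid-response factor, fell by less than 2-fold. Growth-regulating factor 1 (LOC_Os02g53690), of a family that promotes cell proliferation, had 10.4, 10.4 and 10.1 FPKM at 14 DAI and 19.8, 17.3 and 17.1 FPKM at 10 DAI (log2FC -0.81). For auxin, the repressor IAA24 (LOC_Os07g08460, log2FC -1.22) and auxin transporter-like protein 3 (LOC_Os10g05690, log2FC -1.13) fell, and auxin response factor 24 (LOC_Os12g29520, log2FC 0.56) rose. IAA24 was the 1 of 28 auxin-responsive IAA genes tested to change, and 16 of the 28 had a positive and 12 a negative log2FC. The KEGG list of plant hormone signal transduction had 3 genes that rose and 3 that fell of 384 tested. These shares, 0.781% each, were near those of all genes (0.71% rose and 0.525% fell).

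Of the 10 changed hormone genes named before auxin response factor 24, all 10 kept their call without replicate 3 of 10 DAI, 9 without replicate 1 of 14 DAI, none without replicate 2 of 14 DAI and 2 each without replicate 3 of 14 DAI and replicate 2 of 10 DAI. The highest adjusted p with 1 library left out was between 0.050 and 0.152.

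Of the changed genes of amino acid transport, 4 permeases fell and a cationic transporter rose. Of 17 amino acid permeases tested, 4 fell (23.5%, against 0.525% of all genes) and none rose, while the median log2FC was -0.09. The most abundant of the 4, LOC_Os07g04180, had 68, 76.3 and 71 FPKM at 14 DAI and 114, 115 and 107 FPKM at 10 DAI (log2FC -0.64, SE 0.10, adjusted p = 0.0229 in edgeR). Of 2 genes annotated as amino acid permease 3, LOC_Os06g36180 had 13.4, 13.1 and 13 FPKM at 14 DAI and 36, 22.9 and 20.9 FPKM at 10 DAI (log2FC -1.0). The other, LOC_Os12g08130, had 1.03, 0.778 and 1.39 FPKM at 14 DAI and 7.46, 2.89 and 2.66 FPKM at 10 DAI (log2FC -1.99). The homolog of BAT1 (LOC_Os01g42234) fell too, with a log2FC of -0.73, and was lower still at 12 DAI (4.57, 5.37 and 4.69 FPKM). None of the 4 kept its call without replicate 2 or 3 of 14 DAI or without replicate 2 of 10 DAI, with adjusted p up to 0.141. Cationic amino acid transporter 5 (LOC_Os01g11160) had 5.59, 8.36 and 5.48 FPKM at 14 DAI and 2.32, 2.19 and 2 FPKM at 10 DAI, without overlap (log2FC 1.58, SE 0.21, adjusted p = 0.0144 in edgeR). With 1 library left out its adjusted p was up to 0.063.

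Among the other genes with the largest falls, LOC_Os01g57040, which the table does not annotate with a function, had 5.18, 4.52 and 5.53 FPKM at 14 DAI and 20.9, 18.5 and 22 FPKM at 10 DAI, a 4.02-fold difference (log2FC -2.01, SE 0.22, adjusted p = 0.0131 in edgeR). A MatE family transporter (LOC_Os12g03230) had 21.7, 7.8 and 7.15 FPKM at 10 DAI, 0.876, 1.19 and 0.792 FPKM at 12 DAI and 2.55, 3.09 and 2.69 FPKM at 14 DAI (log2FC -2.11, adjusted p = 0.0399). Its lowest levels were at 12 DAI, and replicate 1 of 10 DAI was well above the other libraries of 10 DAI. The non-specific phospholipase C6 gene (LOC_Os01g01190), a lipid-cleaving enzyme, fell to 3.41, 3.25 and 4.89 FPKM at 14 DAI, against 12.3, 9.97 and 8.2 FPKM at 10 DAI (log2FC -1.39, adjusted p = 0.0163). LOC_Os03g11210 fell to 17.9, 16 and 14.7 FPKM at 14 DAI, against 44.5, 34.7 and 46.7 FPKM at 10 DAI (log2FC -1.37, adjusted p = 0.0104). Indole-3-glycerol phosphate lyase (LOC_Os03g58300), which yields free indole, fell to 33.6, 51.1 and 61.9 FPKM at 14 DAI, against 111, 151 and 106 FPKM at 10 DAI (log2FC -1.32). The transcription factor bHLH148 (LOC_Os03g19780, log2FC -1.37) and LOC_Os08g03410, annotated with nutrient reservoir activity (225, 154 and 197 FPKM at 14 DAI and 316, 447 and 397 FPKM at 10 DAI), completed this group. Without replicate 2 of 14 DAI none of these 7 genes kept its call, and with 1 library left out the adjusted p was at most 0.154.

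Genes of calcium transport and calcium sensing were among the rises. The largest rise among named genes with a mean of at least 10 FPKM at either time point was that of the plasma-membrane calcium-transporting ATPase 7 (LOC_Os10g28240, chromosome 10, 14681994 to 14685370), a pump that removes calcium from the cytosol, with 0.874, 0.16 and 0.755 FPKM at 10 DAI, 0.27, 0.197 and 0.198 FPKM at 12 DAI and 14.7, 12 and 5.77 FPKM at 14 DAI. All libraries before 14 DAI were below 1 FPKM and all of 14 DAI above 5 FPKM. The level at 14 DAI was 18-fold higher (log2FC 4.17, SE 0.57, adjusted p = 0.0156 in edgeR). The calcium-binding protein CML22 gene (LOC_Os04g41540) had 8.88, 11.4 and 6.05 FPKM at 14 DAI and 1.92, 1.18 and 2.05 FPKM at 10 DAI (log2FC 2.34, SE 0.30, adjusted p = 0.0144). CML10 (LOC_Os01g72100) had 12.5, 24.4 and 7.5 FPKM at 14 DAI and 3.39, 4.37 and 4.13 FPKM at 10 DAI (log2FC 1.89, SE 0.37, adjusted p = 0.0447). In CML10, replicate 2 of 14 DAI was far above the other libraries of its group, which still lay above all of 10 DAI.

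The calcium-dependent protein kinase 21 gene (LOC_Os08g42750), whose product turns a calcium signal into phosphorylation, had 19.1, 21.4 and 15.4 FPKM at 14 DAI and 6.99, 7.53 and 8.46 FPKM at 10 DAI (log2FC 1.28, SE 0.15, adjusted p = 0.0143 in edgeR). Genes annotated as calmodulin-binding protein 25 or 60, IQM or SAR DEFICIENT were joined in 1 set after their values were seen, so its share is a description. Of the 21 genes of this set that were tested, 5 rose (23.8%, against 0.71% of all genes), none fell, and the median log2FC was 0.31. They were IQM1 (LOC_Os01g38980, 15.3, 12.2 and 8.42 FPKM at 14 DAI and 5.32, 3.82 and 3.95 FPKM at 10 DAI), IQM2 (LOC_Os07g43970, log2FC 2.25), calmodulin-binding protein 25 (LOC_Os07g48710, log2FC 1.71) and its like gene LOC_Os01g17050 (log2FC 1.82), and SAR DEFICIENT 1 (LOC_Os01g04280, log2FC 1.82), known from Arabidopsis as a regulator of salicylic acid synthesis. Of 26 CML genes 2 rose and none fell (median 0.22), and of 25 calcium-dependent protein kinases 1 rose and none fell (median 0.16). Annexin D5 (LOC_Os08g32970), of a family of calcium-dependent membrane-binding proteins, had 4.37, 6.48 and 6.19 FPKM at 14 DAI and 2.85, 2.66 and 2.68 FPKM at 10 DAI (log2FC 1.06). The gene of the calmodulin-binding receptor kinase CaMRLK (LOC_Os06g35200), outside these families, fell, with 3.91, 3.78 and 5.01 FPKM at 14 DAI and 9.08, 7.02 and 9.01 FPKM at 10 DAI (log2FC -0.98, adjusted p = 0.0362, and 0.116 without replicate 2 of 14 DAI). The KEGG list of plant-pathogen interaction, which holds several of these genes, had 6 genes that rose and 1 that fell of 389 tested (median 0.01). Of the 9 changed calcium genes named before annexin D5, 8 kept their call without replicate 1 of 14 DAI, none without replicate 2 of 14 DAI and 1 without replicate 2 of 10 DAI, with adjusted p of up to 0.141 with 1 library left out.

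The DREB1 factors, which bind the dehydration-responsive element and switch on cold-response genes, had the highest median log2FC of the families by annotation, 4.33 over 9 genes. All 9 had a positive log2FC, 7 did not overlap between the time points (8.37% of all genes had their libraries of 14 DAI above) and 8 had an unadjusted p below 0.05 (8.11% of all genes were higher at that limit), but only 1 passed the adjusted test. That gene, DREB 1C (LOC_Os06g03670), had 0, 0.118 and 0.177 FPKM at 10 DAI, 0.0576, 0.167 and 0.227 FPKM at 12 DAI and 5.37, 3.67 and 0.99 FPKM at 14 DAI. The rise (log2FC 5.01, SE 1.0, adjusted p = 0.0493 in edgeR) rests on estimated counts of 467, 273 and 65 at 14 DAI and of 0, 11 and 16 at 10 DAI, so its size is imprecise. With each of the 9 libraries left out in turn, its adjusted p was 0.055 to 0.158 and the call was lost.

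The most abundant DREB1 genes missed the limit. DREB 1B (LOC_Os09g35010) had 0.329, 0.142 and 3 FPKM at 10 DAI, 2.87, 2.79 and 0.22 FPKM at 12 DAI and 45.2, 70.4 and 36 FPKM at 14 DAI (log2FC 5.40, SE 1.13, adjusted p = 0.0562 in edgeR). DREB 1A (LOC_Os09g35030) had 0.88, 0.25 and 12.1 FPKM at 10 DAI, 18.3, 21.8 and 4.26 FPKM at 12 DAI and 72.8, 135 and 61.3 FPKM at 14 DAI (log2FC 4.29, SE 1.20, adjusted p = 0.126). In both genes replicate 3 of 10 DAI was well above the other libraries of 10 DAI, and yet below every library of 14 DAI. Without that library the adjusted p was 0.0144 for DREB 1B and 0.0107 for DREB 1A, and 5 of the 9 genes passed. With any other single library left out at most 1 of the 9 passed, and none did in the fit of the 6 libraries alone. DREB 1H (LOC_Os09g35020), which lies between them on chromosome 9 (20399334 to 20400263), had 11.2, 20.7 and 8.58 FPKM at 14 DAI and 0.0431, 0.178 and 0.897 FPKM at 10 DAI (adjusted p = 0.0602). The 3 genes lie within 10 kb of each other, and reads that fit more than 1 of them could have been split in counting.

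DREB 1G (LOC_Os02g45450) had 1.77, 1.65 and 1.21 FPKM at 14 DAI and was listed at 0 in all 3 libraries of 12 DAI and 1 of 10 DAI. DREB 1E (LOC_Os04g48350) had 1.75, 2.93 and 1 FPKM at 14 DAI and at most 0.14 FPKM at 10 DAI (adjusted p = 0.0507). DREB 1I (LOC_Os08g43210) overlapped, with replicate 1 of 14 DAI, at 1.18 FPKM, far below the 22.1 and 22.3 FPKM of the other libraries of 14 DAI, against 0.431, 0.715 and 1.32 FPKM at 10 DAI. Its neighbour LOC_Os08g43200 had 7.35, 3.96 and 3.44 FPKM at 14 DAI and 0.646, 0.396 and 1.8 FPKM at 10 DAI (adjusted p = 0.0788), and LOC_Os06g06970 stayed below 0.5 FPKM at both time points. DESeq2 called 8 and limma on log2(FPKM + 0.1) called 7 of the 9 genes as higher.

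**Figure D4:**
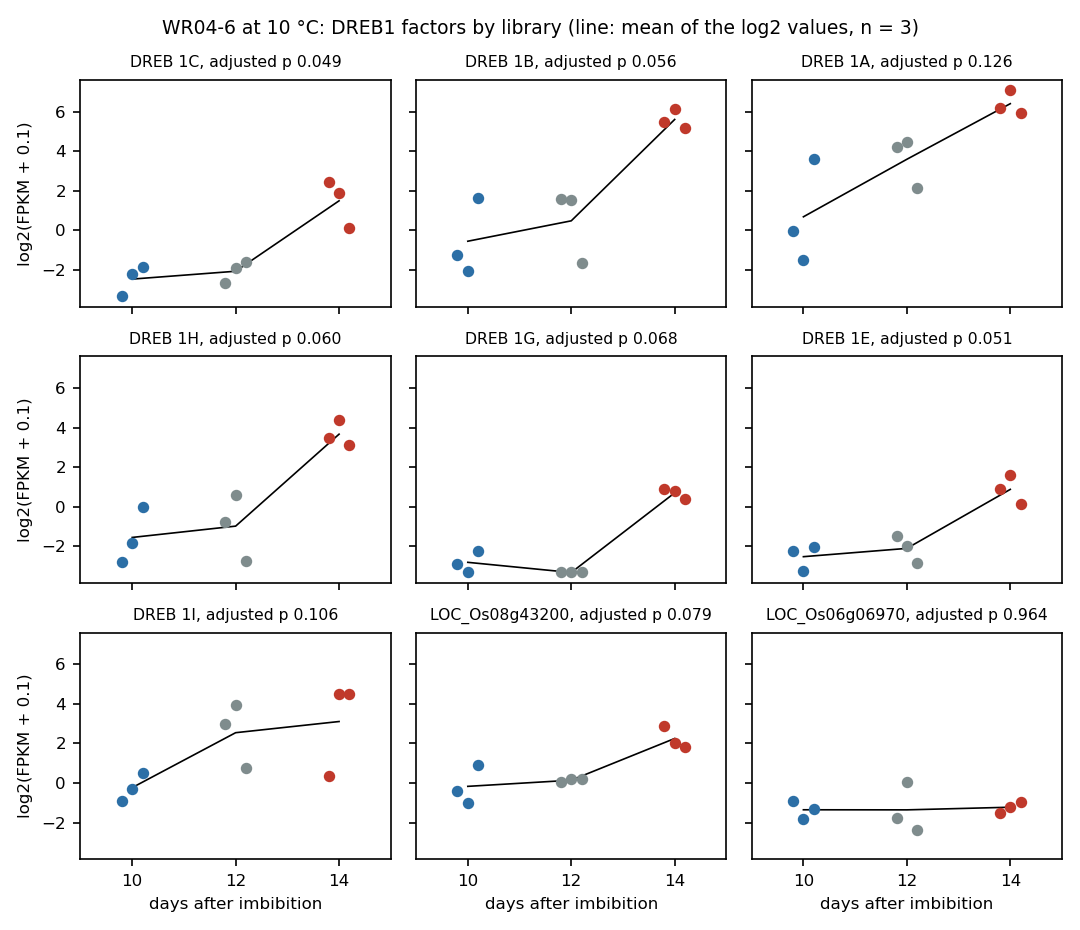
Level as log2(FPKM + 0.1) (y axes) of the 9 DREB1 genes in the libraries of WR04-6 at 10, 12 and 14 DAI (x axes), with points for libraries, a line through the means of the log2 values (n = 3) and the adjusted p for 14 over 10 DAI in each title. At 14 DAI 7 genes lie above all libraries of 10 DAI, and 1, DREB 1C, has an adjusted p below 0.05.

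Other stress-response factors rose. The multiprotein-bridging factor 1c gene (LOC_Os06g39240), a coactivator of heat responses, had 32, 55.4 and 66.7 FPKM at 14 DAI and 6.66, 6.08 and 11.9 FPKM at 10 DAI (log2FC 2.63, SE 0.43, adjusted p = 0.0317 in edgeR). The zinc finger protein ZAT12 gene (LOC_Os03g60570), which responds to oxidative stress and cold in Arabidopsis, had 10.0, 4.86 and 5.89 FPKM at 14 DAI and 1.62, 1.19 and 1.39 FPKM at 10 DAI (log2FC 2.30, SE 0.41, adjusted p = 0.0359). Heat stress transcription factor A-3 (LOC_Os02g32590) had 13.3, 17.5 and 21.6 FPKM at 14 DAI and 5.77, 3.78 and 5.5 FPKM at 10 DAI (log2FC 1.80, SE 0.22, adjusted p = 0.0143). None of the 3 overlapped between the time points. The A-3 factor was the 1 gene to change of 22 heat stress factors tested. WRKY53 (LOC_Os05g27730) rose by less than 2-fold (64.1, 48.8 and 55.9 FPKM at 14 DAI and 32.4, 27.9 and 33.3 FPKM at 10 DAI) and was the 1 of 59 WRKY genes to change.

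Of 60 NAC genes tested, 5 rose (8.33%, against 0.71% of all genes) and 1 fell (1.67%, against 0.525%). Their median log2FC was 0.15. The NAC2-like gene LOC_Os03g60080 was the most abundant of those that rose, with 22.3, 29.5 and 46.5 FPKM at 10 DAI, 70.3, 70.2 and 53.6 FPKM at 12 DAI and 123, 121 and 112 FPKM at 14 DAI, so that 12 DAI lay between the other time points (log2FC 1.84, SE 0.26, adjusted p = 0.0163 in edgeR). NAC68 (LOC_Os01g60020) had 6.37, 4.73 and 5.01 FPKM at 10 DAI, 3.39, 2.18 and 2.54 FPKM at 12 DAI and 16.8, 14.7 and 14.1 FPKM at 14 DAI (log2FC 1.51, SE 0.19, adjusted p = 0.0143), with the lowest levels at 12 DAI. NAC74 (LOC_Os01g15640, log2FC 1.09), LOC_Os05g10620 (log2FC 2.34) and the ATAF2 gene (LOC_Os10g21560, log2FC 0.74) also rose, and LOC_Os01g66490 fell (log2FC -1.10). Of 17 scarecrow-like GRAS factors, 3 rose and none fell (median 0.22). Scarecrow-like protein 1 (LOC_Os01g65900) had 69.6, 73 and 62.3 FPKM at 14 DAI and 33.6, 23.4 and 40.1 FPKM at 10 DAI (log2FC 1.07), and the others were LOC_Os04g49110 (log2FC 1.45) and LOC_Os01g62460 (log2FC 0.90).

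The largest rise of a transcription factor with a mean of at least 10 FPKM at either time point was that of bHLH96 (LOC_Os03g08930), with 4.36, 2.37 and 4.58 FPKM at 10 DAI, 17, 14.9 and 7.34 FPKM at 12 DAI and 17.5, 40.9 and 33.9 FPKM at 14 DAI (log2FC 3.02, SE 0.42, adjusted p = 0.0163 in edgeR). The AP2/ERF and B3 domain gene LOC_Os01g49830 had 10.7, 7.66 and 10.9 FPKM at 10 DAI, 40.8, 37.6 and 17.1 FPKM at 12 DAI and 32.6, 61.3 and 53.2 FPKM at 14 DAI (log2FC 2.33, adjusted p = 0.0216). In both genes replicate 1 was the lowest library of 14 DAI. Over the whole GO list of transcription factors (948 tested), 20 rose (2.11%, against 0.71% of all genes) and 9 fell (0.949%, against 0.525%). Their median log2FC was 0.02. The lists of response to heat (123 genes, 5 rose and none fell), to cold (208 genes, 4 rose and 1 fell), to water deprivation (214 genes, 4 rose and 1 fell) and to oxidative stress (142 genes, 3 rose and 1 fell) had medians between 0.00 and 0.09. Of the 15 changed factors of this and the previous 2 paragraphs, 14 kept their call without replicate 1 of 14 DAI, 14 without replicate 3 of 10 DAI and none without replicate 2 of either time point. The highest adjusted p with 1 library left out was 0.134.

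A few genes of sugar metabolism changed, and the trehalose-phosphate synthases among them were higher at 14 DAI. Of 11 trehalose-phosphate synthase genes, 3 rose (27.3%, against 0.71% of all genes), none fell, and the median log2FC was 0.41. These genes belong to the pathway of trehalose 6-phosphate, a signal of sucrose supply in plants. LOC_Os08g34580 had 2.24, 2.55 and 5.31 FPKM at 10 DAI, 4.16, 4.72 and 3.05 FPKM at 12 DAI and 22.6, 23.5 and 12.8 FPKM at 14 DAI (log2FC 2.52, SE 0.37, adjusted p = 0.0222 in edgeR). LOC_Os01g54560 had 33.1, 30.6 and 18.8 FPKM at 14 DAI and 12.3, 11.7 and 11.3 FPKM at 10 DAI (log2FC 1.23, SE 0.18, adjusted p = 0.0191). In both genes replicate 3 was the lowest library of 14 DAI and still above 10 DAI. LOC_Os02g54820 rose by less than 2-fold (log2FC 0.82), and one more, LOC_Os05g44100, did not pass the test with 25.7, 25.4 and 18 FPKM at 14 DAI and 11, 8.93 and 14.3 FPKM at 10 DAI (adjusted p = 0.0632). None of the 6 trehalose-phosphate phosphatases changed (median 0.80).

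LOC_Os04g33460 (chromosome 4, 20239790 to 20243460), annotated with 1,4-alpha-glucan branching enzyme activity, which puts branches into starch, rose from 10 to 14 DAI. Its levels at 12 DAI lay between those of the other time points. It had 30.6, 33.4 and 36.1 FPKM at 10 DAI, 50.4, 57.2 and 50.3 FPKM at 12 DAI and 78.7, 80.2 and 82.2 FPKM at 14 DAI, with no overlap among the 3 time points. The level at 14 DAI was 2.41-fold higher (log2FC 1.27, SE 0.11, adjusted p = 0.0104 in edgeR, and at most 0.0465 with 1 library left out). In the KEGG list of starch and sucrose metabolism, 5 of 288 genes rose (1.74%, against 0.71% of all genes) and none fell. These 5 were the 3 trehalose-phosphate synthases, LOC_Os04g33460 and IQM1 (LOC_Os01g38980), which is also counted with the calmodulin-binding genes above. The share therefore adds no further genes. The median log2FC of the list was 0.01. The 3 trehalose-phosphate synthases above lost their call without replicate 2 of 14 DAI, with adjusted p of up to 0.144. LOC_Os02g01590, which the table annotates as sucrose:sucrose 1-fructosyltransferase, fell. Its activity in rice was not tested here. It had 4.18, 2.18 and 2.13 FPKM at 14 DAI and 8.81, 7.34 and 7.71 FPKM at 10 DAI (log2FC -1.49, SE 0.26, adjusted p = 0.0348 in edgeR, and 0.0989 without replicate 2 of 14 DAI).

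The alpha-amylases, which release sugar from endosperm starch, were higher at 14 DAI in some libraries without passing the test. Of 8 genes listed by ID, none changed, 6 had a positive log2FC and the median was 0.87. Of all 15 genes annotated as alpha-amylases, none changed either, 8 had a positive and 7 a negative log2FC, and the median was 0.12. Alpha-amylase 3A (LOC_Os09g28400) had 19, 2.37 and 0.339 FPKM at 10 DAI, 30.2, 156 and 13 FPKM at 12 DAI and 125, 208 and 302 FPKM at 14 DAI (log2FC 4.92, SE 1.35, adjusted p = 0.118 in edgeR). The libraries of 10 DAI, and those of 12 DAI, lay far apart from each other, and all of 10 DAI were below those of 14 DAI. The most abundant isozyme, 3E (LOC_Os08g36900), overlapped between the time points with 218, 647 and 551 FPKM at 14 DAI and 310.4, 291 and 379.5 FPKM at 10 DAI. Alpha-amylase 3D (LOC_Os08g36910, log2FC 4.18, adjusted p = 0.164) and LOC_Os02g52710 (log2FC 1.14, adjusted p = 0.138) did not pass either.

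Of 76 type 2C protein phosphatases, 5 rose (6.58%, against 0.71% of all genes), none fell, and the median log2FC was 0.03. LOC_Os01g19130 had 55.9, 46.3 and 40.5 FPKM at 14 DAI and 17, 16.8 and 25.8 FPKM at 10 DAI (log2FC 1.25, SE 0.20, adjusted p = 0.0278 in edgeR). LOC_Os03g55320 had 32.1, 33 and 30.3 FPKM at 14 DAI and 21.3, 21.8 and 20.3 FPKM at 10 DAI, the narrowest spread of the 5 (log2FC 0.59, SE 0.08, adjusted p = 0.0144). The others were LOC_Os03g18150 (log2FC 1.58), LOC_Os03g09220 (log2FC 1.76) and LOC_Os04g52000 (log2FC 1.06). Without replicate 2 of either time point none of the 5 kept its call, and with 1 library left out the adjusted p reached 0.152.

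ABA genes did not pass the test. Of 10 listed by ID, none changed, and the median log2FC was 0.84. ABA 8'-hydroxylase 1 (LOC_Os02g47470), which breaks ABA down, had 18.9, 55 and 36 FPKM at 14 DAI and 9.26, 6.58 and 14.8 FPKM at 10 DAI, without overlap (log2FC 1.83, SE 0.42, adjusted p = 0.0707 in edgeR). The MOTHER of FT and TFL1 homolog 2 (LOC_Os01g02120), a seed dormancy gene, had 9.05, 11.1 and 7.59 FPKM at 14 DAI and 5.01, 2.48 and 5.88 FPKM at 10 DAI (adjusted p = 0.133). Of 300 genes annotated as responding to ABA, 2 rose and none fell. Of 7 late embryogenesis abundant (LEA) and dehydrin genes, none changed, and embryonic abundant protein 1 (LOC_Os05g28210) had 457, 133 and 224 FPKM at 14 DAI and 86.3, 117 and 177 FPKM at 10 DAI. The 14 storage and oil-body genes all had a negative log2FC (-0.65 to -0.15, median -0.51), and none changed. This sign was not stable, since 12 of the 14 turned positive without replicate 3 of 10 DAI. Their summed level differed more among the libraries of 10 DAI (3674 to 12885 FPKM) than between the time points.

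The other genes of the largest rises belong to no common family. BURP domain-containing protein 2 (LOC_Os05g12640) had 20.8, 30.3 and 18.6 FPKM at 10 DAI, 26.5, 140.0 and 122 FPKM at 12 DAI and 207, 157 and 119 FPKM at 14 DAI (log2FC 2.79, SE 0.52, adjusted p = 0.0411 in edgeR). At 12 DAI, 2 of its libraries were already at the level of 14 DAI and replicate 1 was at that of 10 DAI. The uncharacterized gene LOC_Os01g28790 had 4.86, 3.51 and 7.12 FPKM at 10 DAI, 4.51, 5.43 and 1.95 FPKM at 12 DAI and 53.8, 67 and 31.1 FPKM at 14 DAI (log2FC 3.28, SE 0.44, adjusted p = 0.0144). A second uncharacterized gene, LOC_Os01g58140, had 17.9, 16.7 and 8.36 FPKM at 14 DAI and 1.28, 0.238 and 1.1 FPKM at 10 DAI (log2FC 4.02, adjusted p = 0.0353). In both, 12 DAI was near 10 DAI. A Bowman-Birk type trypsin inhibitor (LOC_Os03g60840) had 20.8, 34.3 and 21.2 FPKM at 14 DAI and 3.08, 2.36 and 4.66 FPKM at 10 DAI (log2FC 2.91, adjusted p = 0.0261).

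In 3 genes with a large rise replicate 1 of 14 DAI was well below replicates 2 and 3. A putative mitochondrial carrier (LOC_Os03g07890) had 16.6, 66.8 and 69.1 FPKM at 14 DAI and 6.91, 4.07 and 4.38 FPKM at 10 DAI (log2FC 3.32, SE 0.65, adjusted p = 0.0446 in edgeR). An F-box/kelch-repeat gene (LOC_Os06g39370) had 5.09, 24.4 and 21.9 FPKM at 14 DAI and 0.482, 1.09 and 1.68 FPKM at 10 DAI (log2FC 3.96, SE 0.75, adjusted p = 0.0421). LOC_Os04g58810, annotated with the CCR4-NOT complex of mRNA decay, had 20.5, 33.4 and 28.9 FPKM at 14 DAI and 3.34, 3.08 and 6.51 FPKM at 10 DAI (log2FC 2.66, adjusted p = 0.0362). Replicate 1 was not low throughout, however, being the lowest library of 14 DAI in 33 and the highest in 36 of the 110 DEGs that were higher at 14 DAI.

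Further rises concerned single genes of growth control and detoxification. The cyclin-dependent kinase inhibitor SMR1 (LOC_Os10g39920), of a family that restrains the cell cycle, had 19.8, 27.3 and 25.8 FPKM at 14 DAI and 4.42, 3.27 and 7.77 FPKM at 10 DAI (log2FC 2.22, SE 0.35, adjusted p = 0.0261 in edgeR). The precursor of phytosulfokine 5 (LOC_Os12g05260), a peptide growth signal, had 55, 62.9 and 59.3 FPKM at 14 DAI and 24.3, 19.3 and 34.3 FPKM at 10 DAI (log2FC 1.18, adjusted p = 0.0353). The glutathione S-transferase GSTU1 gene (LOC_Os03g57200), a detoxifying enzyme, had 7.36, 10.7 and 6.69 FPKM at 14 DAI and 1.61, 1.05 and 1.21 FPKM at 10 DAI (log2FC 2.68, adjusted p = 0.0143). It was the 1 of 55 glutathione S-transferases to change. Serine hydroxymethyltransferase 7 (LOC_Os01g65410) had 50.9, 43.1 and 47.9 FPKM at 14 DAI and 19.5, 17.3 and 24.7 FPKM at 10 DAI (log2FC 1.20). The B2 protein gene (LOC_Os05g51590, 30.7, 15.7 and 29.2 FPKM at 14 DAI and 8.06, 6.33 and 7.94 FPKM at 10 DAI) and LOC_Os01g47570 (log2FC 2.47) complete the named rises. Of the 13 genes in these 3 paragraphs, 11 kept their call without replicate 1 of 14 DAI, 1 without replicate 2 of 14 DAI (B2) and none without replicate 2 of 10 DAI, with adjusted p up to 0.159.

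Many lists of basic cell functions held no changed gene. In 23 of the 50 lists of pathways, processes and genes examined, no gene passed the test in either direction. Since 1.23% of all genes changed, a count of 0 is near the background in the shorter lists. They included the ribosome (314 genes tested, median log2FC -0.07), the proteasome (86, median -0.08), glycolysis and gluconeogenesis (156, median -0.02), the citrate cycle (62, median -0.04), oxidative phosphorylation (132, median -0.03) and DNA replication (75, median -0.05). Photosynthesis (64 genes, median 0.04) and its antenna proteins (15 genes, median -0.38) had none either. The summed level of the antenna genes was 66.2, 145 and 130.1 FPKM at 14 DAI and 364, 174 and 66.9 FPKM at 10 DAI, so that it overlapped and spread most among the libraries of 10 DAI. The summed DNA replication genes varied little, with 1101, 1158 and 1139 FPKM at 14 DAI and 1172, 1209 and 1139 FPKM at 10 DAI. Of the 16 candidate genes for low-temperature germination that the study named, 15 were tested here and none changed (log2FC -1.50 to 0.56, lowest adjusted p 0.146 in edgeR). For lists with no changed gene, a change below the precision of 3 libraries a time point was not detectable.

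The level at 12 DAI, which played no part in choosing the DEGs other than through the spread, placed the changes in time. It was expressed as the share of the log2 change between 10 DAI (0%) and 14 DAI (100%) that had been reached, on log2(FPKM + 0.1). Of the 110 DEGs higher at 14 DAI, 90 (81.8%) were nearer to 10 DAI at 12 DAI, and 36 of these lay below their own level at 10 DAI, with a median of 12.3% of the change reached. Of the 64 DEGs lower at 14 DAI, 29 (45.3%) were nearer to 10 DAI and 35 nearer to 14 DAI, with a median of 53.6%. Calcium-transporting ATPase 7, CML22 and NAC68 were still at or below their mean level of 10 DAI at 12 DAI, whereas expansin-A2, gibberellin-regulated protein 5 and the 2-beta-dioxygenase were already nearer to 14 DAI. Expansin-A4, in contrast, had 281, 261 and 250.1 FPKM at 12 DAI, close to 10 DAI (LOC_Os05g39990). Tested as separate steps, 12 over 10 DAI gave 16 DEGs higher and 17 lower, and 14 over 12 DAI gave 197 higher and 29 lower. Both steps share the libraries of 12 DAI, so their counts are given side by side as a description.

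**Figure D5:**
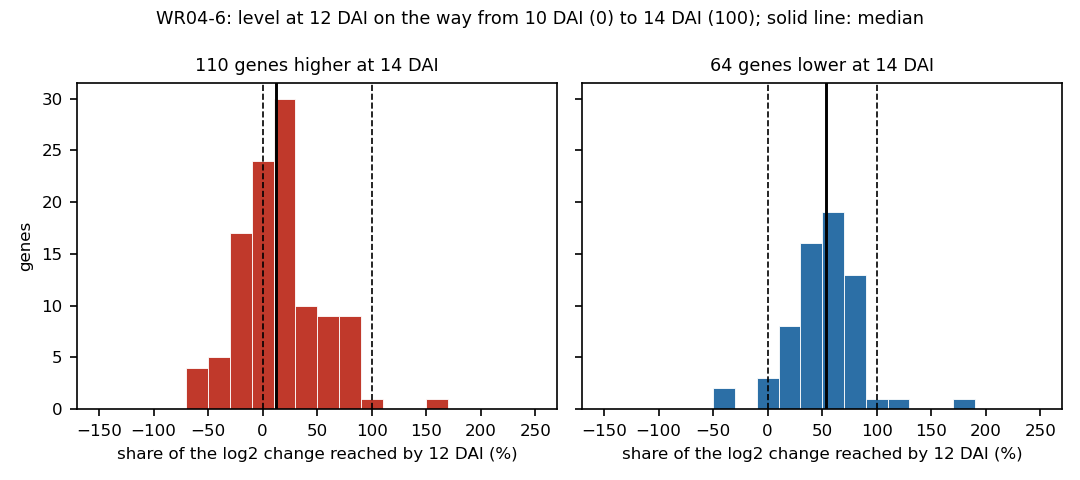
Share of the log2 change between 10 DAI (0) and 14 DAI (100) that was reached at 12 DAI, in percent (x axis), for the 110 DEGs higher (left) and the 64 DEGs lower (right) at 14 DAI, with the number of genes on the y axis. Dashed lines mark 0 and 100, and the solid line the median, which is 12.3% for the genes that rose and 53.6% for those that fell.

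Whether the change differed from that of QSZ over the same days was tested as the accession by time interaction in all 17 libraries. The difference passed the adjusted test in 2 of the 21141 genes (0.00946%), and 3129 (14.8%) had an unadjusted p below 0.05. In QSZ itself, 1192 of these genes changed between 14 and 10 DAI (5.64%) in this fit of all 17 libraries. The same fit gave 68 changed genes in WR04-6, against 261 in the fit of its 9 libraries alone. Of the 17 libraries, the 2 of QSZ at 10 DAI had the fewest raw reads and the lowest share of valid reads. Expansin-like A4 (LOC_Os06g50960), which fell in WR04-6, had 29.2, 32.3 and 18.8 FPKM at 14 DAI and 15.5 and 16.1 FPKM at 10 DAI in QSZ (log2FC 0.79). Its log2FC was -3.08 relative to that of QSZ (adjusted p = 0.0397 in edgeR). LOC_Os09g20940 (chromosome 9, 12606863 to 12607552), with no annotated function, had 1.16, 1 and 1.23 FPKM at 14 DAI and 4.24, 4.48 and 4.83 FPKM at 10 DAI in WR04-6, a 3.95-fold fall. In QSZ it had 11.5, 14.6 and 9.33 FPKM at 14 DAI and 7.47 and 6.41 FPKM at 10 DAI, and the interaction was -2.79 (adjusted p = 0.0207 in edgeR). In both genes the libraries moved in opposite directions in the accessions and did not overlap between the time points in either.

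For the other changed genes a difference from QSZ was not detected, and the values in QSZ are only side by side. LOC_Os04g33460 had a log2FC of 1.27 in WR04-6 and 1.73 in QSZ, where the libraries had 117, 48.9 and 54 FPKM at 14 DAI and 19.7 and 25.7 FPKM at 10 DAI. Gibberellin-regulated protein 5 (LOC_Os06g15620) had log2FC of -1.28 and -1.68, and calcium-transporting ATPase 7 (LOC_Os10g28240) of 4.17 and 1.18, in WR04-6 and QSZ in that order. NAC68 (LOC_Os01g60020) had 1.51 in WR04-6 and -0.65 in QSZ, with an adjusted p of 0.107 for the difference. The number of genes with an interaction fell to 0 without replicate 2 or 3 of WR04-6 at 14 DAI, replicate 2 of WR04-6 at 10 DAI or replicate 3 of QSZ at 10 DAI, and was 55 without replicate 2 of QSZ at 14 DAI.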

How the data were processed

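RNA of whole germinating seeds at 10 °C was sequenced by the authors as pairs of 150-base reads. The submitters' processing notes name cutadapt 1.9, HISAT2 2.0.4 and StringTie 1.3.4d. The authors deposited, for each gene of the MSU 7.0 rice gene models, FPKM values and estimated counts in 17 libraries. The deposited estimated counts are whole numbers derived from coverage, with 4 as the most frequent low value. The strand setting of the counting is not given in the sources used here, so that overlapping antisense genes cannot be told apart. Positions are those of the table.

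Samples were grouped by the labels. The 9 WR04-6 libraries were fitted in 3 groups with edgeR 4.0.16 (R 4.3.3, TMM, quasi-likelihood test), and the contrast was 14 over 10 DAI. Genes with FPKM of at least 0.1 in 2 or more of the 6 libraries were tested. DEGs had a BH-adjusted p below 0.05 and an absolute log2FC of at least 1. SE is the log2FC divided by the root of the F statistic. P-values measure the spread among the 3 replicates of each time. The interaction was fitted in all 17 libraries. DESeq2 1.42.0, limma 3.58.1 on log2(FPKM + 0.1) and log2(FPKM + 1), other scalings and filters, a replicate block and leaving out each library were alternatives. The scripts (Python 3.11.15, pandas 2.3.3, numpy 2.4.6) were tested on simulated data.

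The named genes were the 12 DEGs with the highest and the 12 with the lowest log2FC whose libraries did not overlap and whose mean FPKM reached 10 at either time (100 qualified), genes of ID lists, up to 4 of the most abundant changed genes of each KEGG or GO list with 5 or more changed genes, Actin and 16 candidate genes. All members and lists were chosen with earlier results of these data known. The families by annotation, and named genes outside this rule, were chosen after their values were seen. One ID of the gibberellin list (LOC_Os02g36974) was left out since the deposited annotation calls it a 14-3-3 protein. No sequences were used here.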

Additional observations from a re-analysis of the deposited data

Results flagged for a closer look

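A pair of genes stood out because their change from 10 to 14 DAI differed between WR04-6 and QSZ. LOC_Os06g50960 (expansin-like A4) had an interaction log2FC of -3.08 with an adjusted p of 0.0397 in edgeR's quasi-likelihood test. With 1 of the 17 libraries left out, its adjusted p was 0.0153 to 0.116, and it was 0.0844 with library totals in place of TMM and 0.0505 in limma. LOC_Os09g20940 had an interaction log2FC of -2.79 with an adjusted p of 0.0207 in edgeR. This p was 0.0146 to 0.0909 with 1 library left out, 0.0156 with library totals and 0.00242 in limma. With a replicate block within accession in edgeR, the adjusted p was 0.0169 for LOC_Os06g50960 and 0.0789 for LOC_Os09g20940, which lost its call. All 3 libraries of 14 DAI were below all 3 of 10 DAI in WR04-6 in both genes, and all 3 of 14 DAI were above both of 10 DAI in QSZ. Since QSZ had 2 libraries at 10 DAI, its value at that time rests on them alone. Of the 17 libraries, these 2 had the fewest raw reads and the lowest share of valid reads in the study's overview of sequencing quality.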

How the results depend on the processing

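The counts of genes depended on single libraries, on the set of libraries fitted, on the limit of the adjusted p and on the tool. Leaving out each of the 9 WR04-6 libraries gave between 2 and 311 DEGs (2 to 225 higher and 0 to 86 lower), and between 2 and 451 changed genes (2 to 303 that rose and 0 to 148 that fell). The fit of the 6 libraries alone gave 8 DEGs (5 higher, 3 lower) and 9 changed genes (5 rose, 4 fell). All 17 libraries in 6 groups gave 55 (46 higher, 9 lower) and 68 (54 rose, 14 fell). DESeq2 gave 611 (455 higher, 156 lower) and 1253 (823 rose, 430 fell), and limma on log2(FPKM + 0.1) had 226 genes that rose. At an adjusted p below 0.01, 0 genes passed in edgeR, while 3065 had an unadjusted p below 0.05. Of the 174 DEGs, 98.9% were also DEGs in DESeq2 and 94.3% in limma on log2(FPKM + 0.1). The other scalings, filters, limma on log2(FPKM + 1) and counts divided by 4 kept the counts of DEGs within 1.5 times. The cause of these differences was not tested. With a replicate block the counts were 15 DEGs (8 higher, 7 lower) and 17 changed genes (9 rose, 8 fell). Deviations of same-numbered libraries of 14 and 10 DAI from their group means had correlations of -0.307, -0.0608 and -0.0422. Libraries with different numbers had -0.215 to 0.258. Deviations from a mean of 3 libraries are not independent, so these values cannot decide whether the replicate numbers pair the samples. The interaction count was 1 with library totals and 1 in limma, 2 with a replicate block within accession (LOC_Os06g50960 with an adjusted p of 0.0169 and a different gene, LOC_Os09g20940 having 0.0789), and 0 to 55 with 1 library left out. None of the 261 changed genes had a log2FC that changed sign with 1 library left out. They were selected by the test on the same libraries, so this is no evidence of stable calls. Of 89 named or listed genes that did not pass the test, 35 had a log2FC that changed sign. Among them, that of LOC_Os03g49990 (SLR1) was -0.0007 with all 17 libraries and -0.0832 to 0.123 with single libraries left out. That of LOC_Os06g06970 was -0.12 to 0.41 with single libraries left out. The 3 libraries of a time point and about 4 estimated counts per fragment limit what low genes such as DREB 1C can show.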
